A study of Homo sapiens with 4 samples.

Results

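The feedback genes of the ERK pathway were described here as the set DUSP4, DUSP5, DUSP6, SPRY2, SPRY4, SPRED1, SPRED2, ETV4, ETV5 and PHLDA1, which were listed by name as known targets of the pathway. These 10 genes were followed in H3K27ac HiChIP loop lists of M14, an established human melanoma line. HiChIP joins DNA ends that are neighbours in the folded chromatin and selects them with an antibody, in this case one for H3K27ac, the acetylated form of histone H3 found at promoters and enhancers in use. Both groups were M14 cells that carry an shRNA hairpin, switched on by doxycycline, that targets STAG2, one of the subunits of the loop-forming cohesin complex. The WT group was cultured for 5 days without doxycycline and the STAG2-KD group for 5 days with it, so the WT cells also carry the hairpin, the drug was given to the STAG2-KD cells only, and 1 hairpin in 1 line stands for loss of STAG2. The labels describe 2 samples per group, and for each group 1 list of loops, deposited with its replicate 1, was used here. Loop positions carry no RNA or protein level, so the depth of the STAG2 knockdown and the melanoma identity of the cells could not be checked in them.

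A loop was given to a gene when the start of any of its annotated transcripts lay in 1 of the 2 anchors of the loop, which are 5 kb wide. By this rule 45 of the 27289 WT loops and 48 of the 25621 STAG2-KD loops belonged to the 10 genes, 79 distinct loops in all, and 9 of the 10 genes had a loop in at least 1 list. A loop was called shared when both anchors lay in the same 5 kb bins in the 2 lists, and WT-only or STAG2-KD-only otherwise. Because each group has 1 list, no difference below has a replicate check and none was tested. The lists hold positions without read counts or scores, so the sequencing depth behind a loop is unknown and a loop missing from a list can be one that narrowly missed the authors' limit. The intervals given for shares are exact (Clopper-Pearson) binomial intervals at 95% and cover the counting of loops only.

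ERK is the last kinase of the RAS, RAF and MEK cascade, which carries growth factor signals and is held active in most melanomas by mutations of BRAF or NRAS. Active ERK switches on genes that limit its own signal. Dual-specificity phosphatases of the DUSP family remove phosphate from ERK itself. Sprouty and SPRED proteins act higher up, between the receptors, RAS and RAF. The ETS factors ETV4 and ETV5 and the protein PHLDA1 are transcribed in step with ERK activity, and for that reason genes of this set are used as readouts of the pathway in melanoma.

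Promoter sequence of 3 starts is shown, those of DUSP6 and SPRY2, the genes with the most loops in the WT list, and the SPRED2 start at which all loops of that gene were listed. Most loops of DUSP6 and SPRY2 started from the bin next to that of the representative start shown. The sequences were read from the GRCh37 sequence (the build of the lists, hg19) on the strand of the gene, as the 250 bases before a transcript start. The first belongs to the representative start of DUSP6 at chr12:89746279-89746528 and the second to that of SPRY2 at chr13:80915262-80915511, both on the minus strand. The third precedes a start inside SPRED2, at chr2:65593887-65594136 on the minus strand. Capitals mark a match to the M-box letters TCATGTG, read here from the other strand, in SPRY2 and to the AP-1 letters TGANTCA in the inner SPRED2 window.
DUSP6: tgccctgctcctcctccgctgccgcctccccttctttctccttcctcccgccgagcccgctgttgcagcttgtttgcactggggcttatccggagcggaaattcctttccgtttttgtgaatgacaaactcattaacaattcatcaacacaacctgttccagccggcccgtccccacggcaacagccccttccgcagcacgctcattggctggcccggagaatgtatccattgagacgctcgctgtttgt
SPRY2: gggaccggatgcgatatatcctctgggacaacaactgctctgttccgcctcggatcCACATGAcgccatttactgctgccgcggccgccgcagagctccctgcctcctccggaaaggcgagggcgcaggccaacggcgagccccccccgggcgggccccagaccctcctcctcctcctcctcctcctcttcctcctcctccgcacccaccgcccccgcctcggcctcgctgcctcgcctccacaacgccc
SPRED2 inner start: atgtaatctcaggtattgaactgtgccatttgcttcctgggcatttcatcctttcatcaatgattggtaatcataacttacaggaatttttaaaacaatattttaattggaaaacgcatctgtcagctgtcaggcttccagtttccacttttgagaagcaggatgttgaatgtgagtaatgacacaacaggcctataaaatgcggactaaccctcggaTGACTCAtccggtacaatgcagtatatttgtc

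A set of 4 fixed motifs was searched on both strands in the 250 bases before the representative start of each of the 10 genes. The ETS letters CCGGAAGT, the CRE letters TGACGTCA and the AP-1 letters TGANTCA were found before 0 of the 10 starts. Over 18978 protein-coding genes the same windows held them in 5.21%, 2.42% and 4.63% of cases. The M-box letters were found before 1 start, that of SPRY2, against 1.74% of all genes. Such matches describe letters in these windows and not bound sites.

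Seen over the whole set, the lists were of near equal size but mostly held different loops. The 79 distinct loops split into 14 in both lists, 31 in WT only and 34 in STAG2-KD only. The private loops made up 68.9% of the WT loops of the set (53.4 to 81.8, n = 45) and 70.8% of its STAG2-KD loops (55.9 to 83.0, n = 48). Among all loops with a protein-coding start, 58.8% of the WT loops were absent from the STAG2-KD list and 56.6% of the STAG2-KD loops were absent from the WT list. Over the full lists the 2 shares were 62.0% and 59.5%. All 4 of these background shares lie within the intervals of the set, so no difference in sharing between these genes and the rest was detectable with this number of loops.

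The genes did not move one way. DUSP6, SPRY2 and SPRED1 had fewer loops in the STAG2-KD list, which was true of 43.5% of the 8563 protein-coding genes with a loop in either list. DUSP5, SPRED2, ETV4 and PHLDA1 had more, as did 34.4% of those genes. SPRY4 and ETV5 had equal numbers, as did 22.1%, and DUSP4 had 0 loops in both lists. The largest differences were at SPRY2, with 7 fewer loops in the STAG2-KD list, and SPRED2, with 7 more, and they cancel in the totals of 45 and 48. At least 7 fewer loops were listed for 0.537% of the looped genes and at least 7 more for 0.339%. These limits were set at the differences of SPRY2 and SPRED2 themselves. Leaving SPRED2 out turned the difference in the total, from 3 more loops in the STAG2-KD list to 4 fewer, and leaving ETV4 out turned it to 1 fewer.

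**Figure D1:**
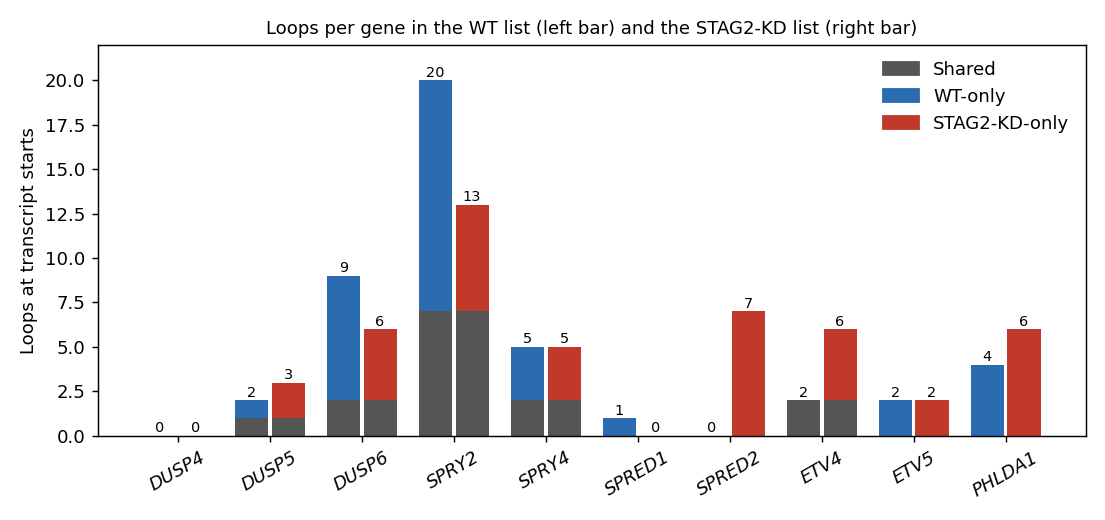
Number of loops with an anchor at a transcript start of each of the 10 genes, in the WT list (left bar of each pair) and the STAG2-KD list (right bar), split into shared loops and loops private to a list. SPRY2 stands highest in both lists with 20 and 13 loops, SPRED2 has 0 and 7, and only 5 genes have a shared loop.

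Most loops of the set ended outside protein-coding genes. The anchor opposite the gene start held a protein-coding start in 2 of 45 WT loops (4.44%, 0.543 to 15.1) and in 3 of 48 STAG2-KD loops (6.25%, 1.31 to 17.2). Without SPRY2, which holds many of these loops, the shares were 8.00% in WT and 8.57% in STAG2-KD. Among all loops with a protein-coding start, 34.4% in the WT list and 33.7% in the STAG2-KD list had one at both anchors. That background also counts starts of the same gene at both anchors, which the shares of the set leave out. The intervals treat loops of the same gene as independent, and the difference was not tested. The opposite anchor overlapped no protein-coding gene in 40 WT loops (88.9%, 75.9 to 96.3) and 35 STAG2-KD loops (72.9%, 58.2 to 84.7). Among private loops this was 27 of 31 in WT (87.1%, 70.2 to 96.4) and 22 of 34 in STAG2-KD (64.7%, 46.5 to 80.3), and these intervals overlap. No share over all loops was counted for this measure. The loops of SPRY2, 20 in WT and 13 in STAG2-KD, all ended outside protein-coding genes apart from a STAG2-KD-only loop. In 74 of the 79 cases (93.7%, 85.8 to 97.9) the representative start of no other protein-coding gene lay between the 2 anchors. Gene bodies between the anchors were not counted, nor was this share over all loops.

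The loops of the set were long. The median distance between anchor midpoints was 255 kb in WT (20 to 720 kb, n = 45) and 165 kb in STAG2-KD (20 to 830 kb, n = 48), against 90 and 85 kb for all loops with a protein-coding start. Distances over 500 kb were found in 10 WT loops of the set (22.2%) and 4 STAG2-KD loops (8.33%), against 3.09% and 4.16% of all loops with a protein-coding start. SPRY2 decides the difference between the lists. Without SPRY2 the medians were 130 kb in both lists, and 1 WT loop and 0 STAG2-KD loops exceeded 500 kb.

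Many private loops joined places that had other loops in the opposite list. For 28 of the 31 WT-only loops the anchor at the gene start had some loop in the STAG2-KD list (90.3%, 74.2 to 98.0), for 21 the anchor away from the gene had one (67.7%, 48.6 to 83.3), and for 18 both did (58.1%, 39.1 to 75.5). For the 34 STAG2-KD-only loops these numbers were 23 (67.6%, 49.5 to 82.6), 21 (61.8%, 43.6 to 77.8) and 15 (44.1%, 27.2 to 62.1). Of all distinct anchors, 37.2% of the WT ones had no loop in the STAG2-KD list and 34.6% of the STAG2-KD ones had none in the WT list. The anchors away from the gene thus had a loop in the opposite list about as often as anchors in general. That background includes anchors of shared loops, which have a loop in both lists by definition. Neither the counts for both anchors nor the near misses below were made over all loops. Few private loops were near misses of the bin grid. Only 2 of the WT-only and 4 of the STAG2-KD-only loops had any loop of the other list within 2 bins at both anchors. In neither list did 2 loops lie within 1 bin of each other at both ends, and a start with 0 loops could lie beside a bin with many.

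**Figure D2:**
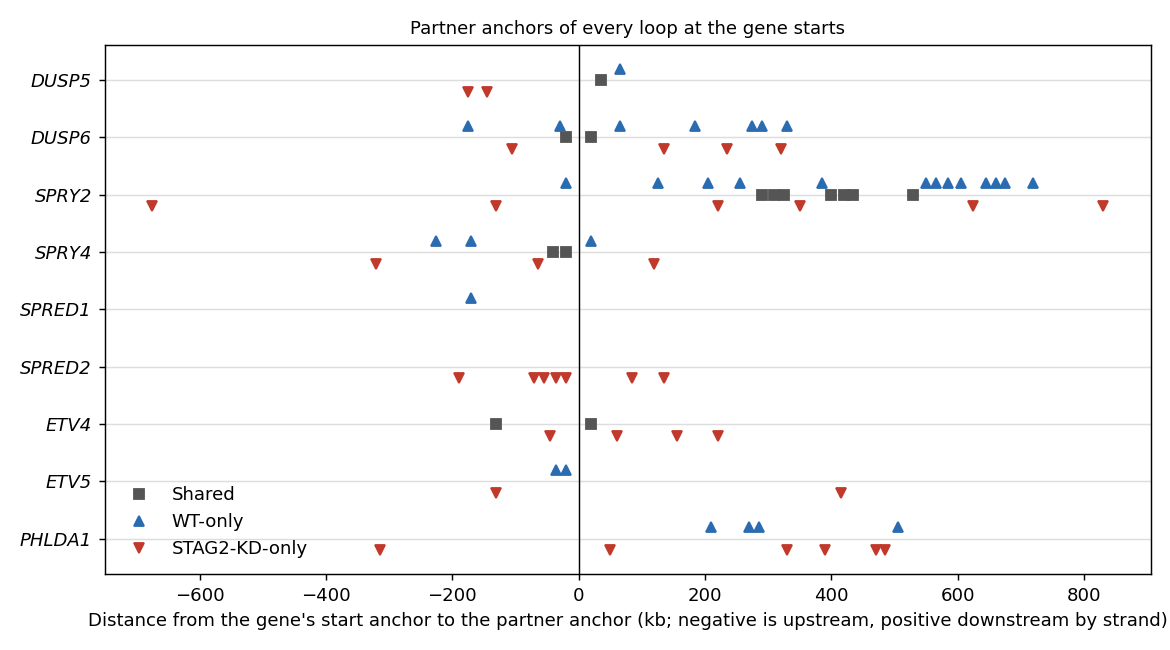
Distance in kb from the anchor at the gene start to the opposite anchor for every loop of the 9 genes with a loop, by strand (negative is upstream, positive is downstream), with a symbol for each class of loop. The WT-only loops of SPRY2 reach 720 kb downstream, whereas the loops of SPRED2 are STAG2-KD-only and lie within 190 kb.

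Among the ERK phosphatases, DUSP6 had the most loops. DUSP6 (ENSG00000139318, chr12:89741012-89746278, minus strand) encodes a cytoplasmic phosphatase that is specific for ERK. The WT list gave it 9 loops and the STAG2-KD list 6, with 2 in common, and it was the only looped gene with this pair of counts. In the WT list 95.0% of the looped genes had fewer loops, and in the STAG2-KD list 87.2%.

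The 2 shared loops of DUSP6 were short, reaching 20 kb downstream to a bin with no gene and 20 kb upstream to the bin 89765001-89770000. The 7 WT-only loops reached 65, 185, 275, 290 and 330 kb downstream and 30 and 175 kb upstream. The 330 kb loop ended at a start of the non-coding gene LINC02458. The 175 kb loop ended at starts of GALNT4, which encodes a glycosyltransferase, and POC1B, which encodes a centriole protein, a partner named after its values were seen. The 4 STAG2-KD-only loops reached 135, 235 and 320 kb downstream and 105 kb upstream, the last into POC1B. Loops of over 200 kb were thus found in both lists, but they ended at different bins.

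The difference at DUSP6 lay in 1 of its 2 start bins. The bin 89740001-89745000, which holds the start of a shorter protein-coding transcript at 89744948, had 7 loops in WT, 3 in STAG2-KD and 1 shared. The adjoining bin 89745001-89750000, which holds the representative start and 3 more starts, had 2 in WT, 3 in STAG2-KD and 1 shared. Counted at the representative start alone, DUSP6 had 1 more loop in the STAG2-KD list, not 3 fewer.

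The anchor 20 kb upstream of DUSP6 was examined after these values were seen. The WT list held 8 loops at it and the STAG2-KD list 12, with 7 in common. Of the distal bins that DUSP6 reached in WT only, the 3 that lay 275, 290 and 330 kb downstream of it were joined to this upstream anchor in both lists, over 300, 315 and 355 kb. The bin 185 kb downstream, which was also joined to DUSP6 in WT only, was joined to the upstream anchor in the STAG2-KD list only, over 210 kb. The POC1B bin that DUSP6 reached in STAG2-KD only was joined to the upstream anchor in both lists, over 85 kb. The window of 500 kb on each side of the DUSP6 start held 19 WT and 25 STAG2-KD loops. The neighbourhood therefore had more loops in the STAG2-KD list while the DUSP6 starts had fewer. Of the 7 bins that DUSP6 reached in WT only, 3 had a loop to the upstream anchor in both lists.

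**Figure D3:**
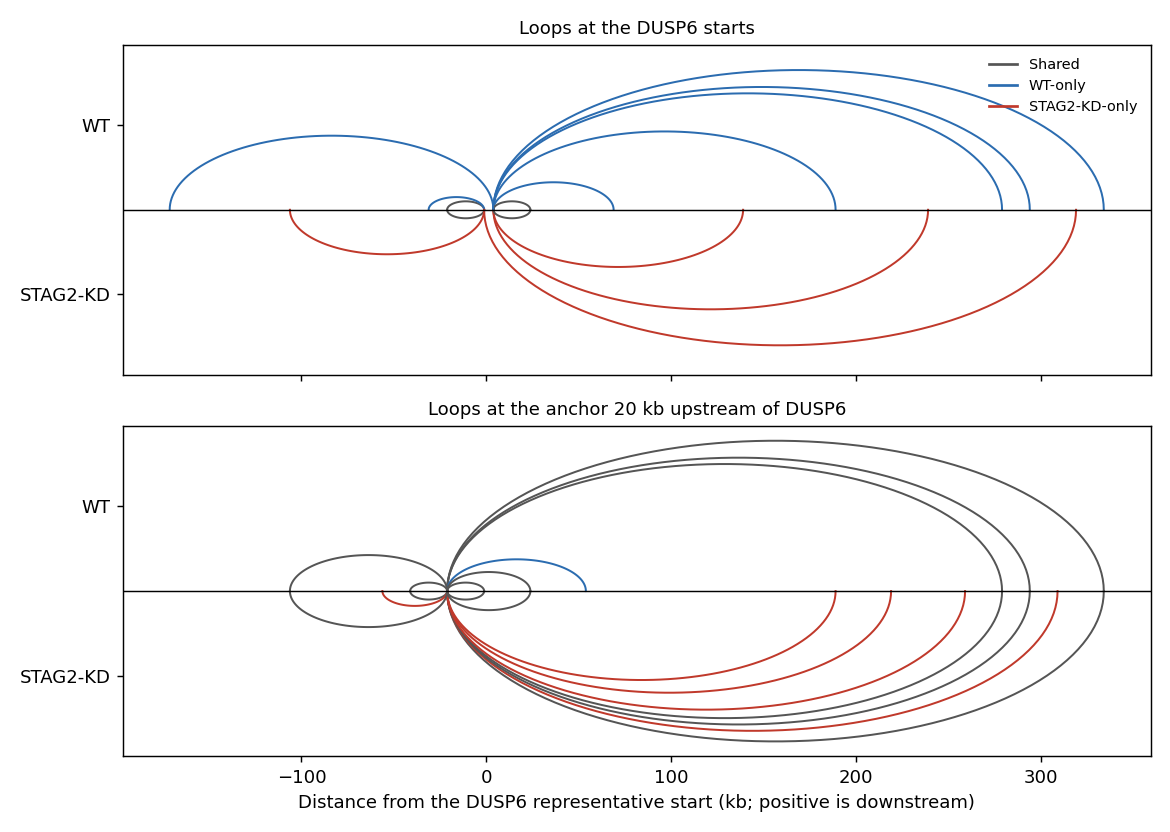
Loops drawn as arcs against distance in kb from the representative start of DUSP6, with WT above and STAG2-KD below each line, for the DUSP6 starts (upper panel, 9 and 6 loops) and for the anchor 20 kb upstream (lower panel, 8 and 12 loops). The 3 far arcs that end 275, 290 and 330 kb downstream of DUSP6 and are WT-only at DUSP6 are shared at the upstream anchor.

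DUSP5 (ENSG00000138166, chr10:112257665-112271291, plus strand), a nuclear ERK phosphatase, had 2 WT loops and 3 STAG2-KD loops, 1 of them shared. The shared loop reached 35 kb downstream. The WT-only loop reached 65 kb downstream to a start of SMC3, which encodes a subunit of the cohesin ring itself. The 2 STAG2-KD-only loops went the other way, 145 and 175 kb upstream. All but 1 of the DUSP5 loops started from the bin 112260001-112265000, where a non-coding transcript of the gene starts. The bin of the representative start had 0 WT loops and 1 STAG2-KD loop, the one of 145 kb.

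DUSP4 (ENSG00000120875, chr8:29190581-29208201, minus strand), another nuclear phosphatase for ERK, had 0 loops at its start in both lists, and of all 19222 protein-coding genes 44.5% had at least 1 loop. The gene did not lie in a quiet place. The bin 29195001-29200000, inside the gene, had 16 WT and 20 STAG2-KD loops, 13 of them shared, and the bin next to the start, 29210001-29215000, had 7 in each list, 2 of them shared. Its zero therefore says where the lists placed anchors and not that the region lacked loops.

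SPRY2 had more loops than any other gene of the set. SPRY2 (ENSG00000136158, chr13:80910111-80915261, minus strand) encodes a Sprouty protein, an inhibitor of signalling from receptor tyrosine kinases to RAS. The WT list gave it 20 loops and the STAG2-KD list 13, with 7 in common. Fewer loops were listed for 99.7% of the looped genes in WT and for 98.4% in STAG2-KD. All but 1 of its loops started from the bin 80910001-80915000, which holds the start of a protein-coding transcript at 80913794. The bin of the representative start had 1 loop, a WT-only loop of 20 kb.

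The loops of SPRY2 ran across the stretch without protein-coding genes on its downstream side. The 7 shared loops reached 290, 310, 325, 400, 420, 435 and 530 kb downstream, and the one of 325 kb ended at a start of LINC01080, a non-coding gene. This band from 290 to 530 kb was bounded by the shared loops themselves, so all 7 lie within it, and the lists had 8 loops each there. Nearer the gene, from 125 to 285 kb, WT had 3 loops and STAG2-KD had 1. Beyond it, from 535 to 830 kb, WT had 8 loops, at 550, 565, 585, 605, 645, 660, 675 and 720 kb, and STAG2-KD had 2, at 625 and 830 kb. The 830 kb loop, the longest of the set, ended inside NDFIP2, which encodes an adaptor of ubiquitin ligases. Upstream there was 1 WT loop at 20 kb and there were 2 STAG2-KD loops at 130 and 675 kb. The surplus of WT loops at SPRY2 thus lay mostly beyond 535 kb. The equal counts in the middle band follow in part from bounding it by the shared loops.

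Of the 13 bins reached by its WT-only loops, 8 had 0 STAG2-KD loops and 5 had at least 1. Of all WT anchors 37.2% had none, but that share is not a like comparison, since it includes anchors of shared loops. Among the 8 of these bins beyond 535 kb, 5 had 0. Of the 6 bins reached by its STAG2-KD-only loops, 3 had 0 WT loops. Anchors with many loops held across the lists. The bin 400 kb downstream had 24 WT and 19 STAG2-KD loops, and the bin 290 kb downstream had 13 and 11. The anchor 20 kb upstream of the gene, 80935001-80940000, examined after the values were seen, had 5 WT loops and 9 STAG2-KD loops, 3 of them shared. It was joined over 685 kb in both lists to a bin that SPRY2 itself reached, over 660 kb, in WT only. Another bin that SPRY2 reached in WT only, 565 kb downstream, was joined to this upstream anchor in WT only as well. In the window of 500 kb on each side the lists had 35 and 34 loops, 18 of them shared.

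**Figure D4:**
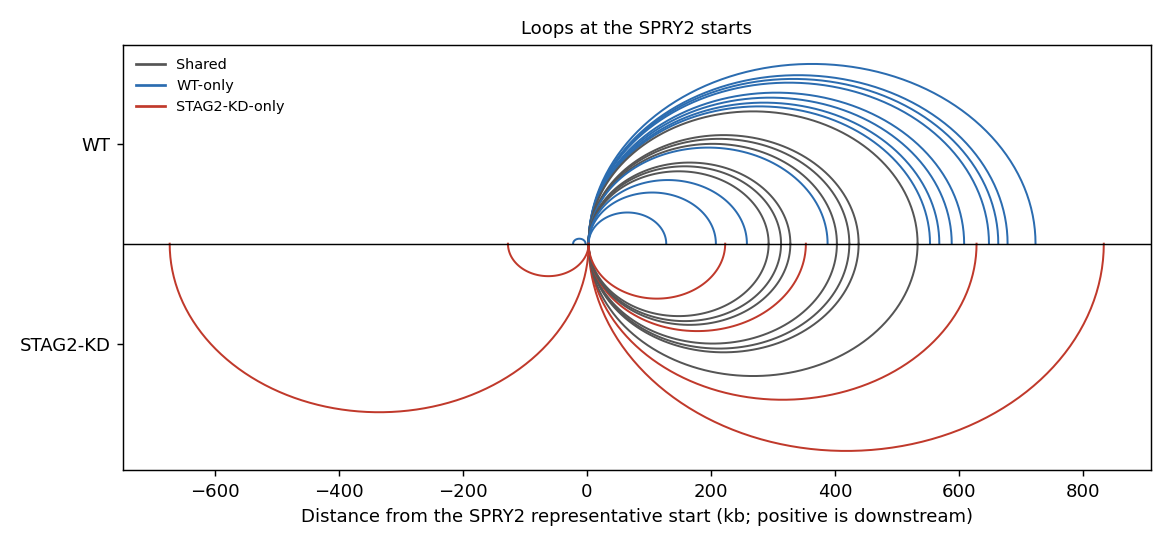
Loops at the SPRY2 starts drawn as arcs against distance in kb from the representative start, with the 20 WT loops above and the 13 STAG2-KD loops below the line. Shared arcs end between 290 and 530 kb downstream, and beyond 535 kb there are 8 WT arcs and 2 STAG2-KD arcs.

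SPRY4 (ENSG00000187678, chr5:141689992-141706020, minus strand), a second Sprouty inhibitor, had 5 loops in each list, 2 of them shared. The shared loops were short, 20 and 40 kb upstream, and the bin at 40 kb had 9 WT and 16 STAG2-KD loops in all. The 3 WT-only loops reached 20 kb downstream and 170 and 225 kb upstream. The 3 STAG2-KD-only loops reached 120 kb downstream, 65 kb upstream to a start of the antisense gene SPRY4-AS1, and 320 kb upstream into FGF1, which encodes a fibroblast growth factor. Equal counts thus stood over sets of loops that differed in 3 of 5 members. This is near the usual share, since 58.8% of all WT loops with a protein-coding start and 56.6% of such STAG2-KD loops were private.

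SPRED1 (ENSG00000166068, chr15:38545037-38649450, plus strand) recruits neurofibromin to hold back RAS. It had 1 WT loop, 170 kb upstream, and 0 in STAG2-KD. The next bin, 38540001-38545000, had 2 loops in each list with 1 shared, and the window of 500 kb on each side held 22 and 23 loops, so a difference of 1 loop at the start has no counterpart around it.

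SPRED2 was the gene with the one-sided count. SPRED2 (ENSG00000198369, chr2:65537985-65659771, minus strand), a paralog of SPRED1 with the same role, had no loop in the WT list (0) and 7 in the STAG2-KD list. No other looped gene had this pair of counts. The combination of 0 WT loops and at least 7 STAG2-KD loops was listed for 2 of the 8563 looped genes (0.0234%). That limit was set at the counts of SPRED2 itself, so the low share follows in part from it. Having 0 WT loops and at least 1 STAG2-KD loop was the case for 1055 genes. In the STAG2-KD list 90.7% of the looped genes had fewer loops than SPRED2. A listed 0 leaves room for contacts below the authors' limit.

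All 7 loops of SPRED2 started from the bin 65590001-65595000, in intron 1 of the representative transcript, which has 6 exons. Transcripts start there at 65593784, which is protein-coding, and at 65593886, and these lie 65949 and 65847 bases into the gene. The 250 bases before the latter start are those printed above. Loops of 20, 35 and 55 kb stayed within SPRED2. Loops of 70 and 190 kb reached upstream of the gene to starts of the non-coding genes LINC02934 and Vault, and loops of 85 and 135 kb reached downstream, the latter into ACTR2, which encodes a subunit of the actin-nucleating Arp2/3 complex. The bin of the representative start itself had 0 loops in both lists. The bin next to it, 65660001-65665000, at which the 70 kb loop ended, had 3 WT and 9 STAG2-KD loops, 2 of them shared. Counted at the representative start alone, SPRED2 had 0 loops in each list, and with a start within 5 kb of an anchor allowed it had 3 WT and 15 STAG2-KD loops.

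The neighbourhood of SPRED2 differed in the same direction. Within 500 kb on each side of its representative start the WT list had 6 loops and the STAG2-KD list 31, of which 4 were shared, a ratio of 5.17. The 7 loops at the SPRED2 starts are among the 31, and without them the window held 6 WT and 24 STAG2-KD loops. The ratio of 5.17 was computed with them included. A limit of at least 20 such window loops in either list was met by 6844 protein-coding starts. Of these, 2 (0.0292%), SPRED2 among them, had a ratio this high, and the median ratio was 0.963. The SPRED2 window met this limit through its 31 STAG2-KD loops only, so its high rank follows in part from that filter. The window had 8 anchors in WT and 19 in STAG2-KD, and all 8 of the WT anchors were also STAG2-KD anchors. Of the 27 STAG2-KD-only loops in the window, 16 joined 2 bins that were both anchors in the WT list. The bin 65780001-65785000 had 1 WT loop and 7 STAG2-KD loops in the window, and the bin 65505001-65510000 had 1 and 6. Acetylation at these bins was not measured apart from the loops.

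**Figure D5:**
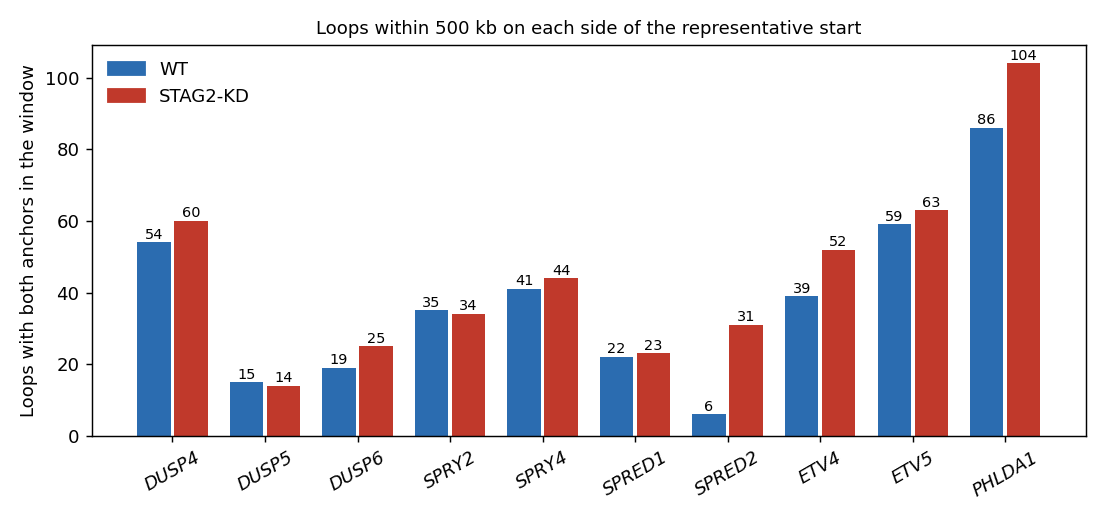
Number of loops with both anchors within 500 kb on each side of the representative start of each gene, in WT and STAG2-KD, with the loops at the gene starts included. SPRED2 has 6 and 31, and the ratio of STAG2-KD to WT is between 0.933 and 1.33 for the 9 other genes.

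Of the ETS factors, ETV4 (ENSG00000175832, chr17:41605212-41656988, minus strand) had 2 WT loops and 6 STAG2-KD loops, and both of the WT loops were shared. These reached 20 kb downstream and 130 kb upstream, the latter across MEOX1, a homeobox gene. The 4 STAG2-KD-only loops reached 60 kb downstream to a start of the RNA helicase gene DHX8, 155 and 220 kb downstream, and 45 kb upstream within ETV4. The bin of the representative start also holds a start of DHX8, so its loops cannot be given to ETV4 alone. The bin 41610001-41615000, which lies 2 bins away inside ETV4, had 5 WT loops and 0 STAG2-KD loops. The STAG2-KD-only loops of 155 and 220 kb each had a WT loop from that bin within 2 bins at both ends. When a start within 5 kb of an anchor was enough, ETV4 had 7 WT and 6 STAG2-KD loops, so the surplus in STAG2-KD depends on where the anchor was placed.

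ETV5 (ENSG00000244405, chr3:185764103-185828107, minus strand) had 2 loops in each list and 0 shared. Having 0 shared loops was the case for 44.5% of looped genes. The WT-only loops reached 20 and 35 kb upstream from the bin 185795001-185800000, inside the gene, where non-coding transcripts of ETV5 and the antisense gene ETV5-AS1 start. From the same bin a STAG2-KD-only loop reached 130 kb upstream into DGKG, a diacylglycerol kinase gene. The other STAG2-KD-only loop reached 415 kb downstream to a start of IGF2BP2, which encodes an RNA-binding protein. The bin of the representative start had 0 loops in both lists, and the bin 185815001-185820000, 2 bins away, had 8 WT and 4 STAG2-KD loops, 2 of them shared. With a start within 5 kb of an anchor allowed, ETV5 had 12 WT and 7 STAG2-KD loops.

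PHLDA1 (ENSG00000139289, chr12:76419227-76425556, minus strand), which encodes a protein with a pleckstrin homology-like domain, had 4 WT loops and 6 STAG2-KD loops, and 0 were shared. Its 10 distinct loops put it among 806 genes with at least 10, of which 4.47% had 0 shared loops. With 4 and 6 loops PHLDA1 met that limit only because it had 0 shared, so the share is not a like comparison. The WT-only loops reached 210, 270, 285 and 505 kb downstream. The STAG2-KD-only loops reached 50, 330, 390, 470 and 485 kb downstream and 315 kb upstream, across NAP1L1 to a start of BBS10, which encodes a chaperonin-like protein. All 4 bins reached in WT only had loops in the STAG2-KD list, and 5 of the 6 bins reached in STAG2-KD only had loops in the WT list. The next bin, 76420001-76425000, which lies inside the gene, had 4 WT and 6 STAG2-KD loops as well, 2 of them shared. One WT-only loop, of 210 kb, and one STAG2-KD-only loop, of 470 kb, had a loop of the other list within 1 bin at both ends. The window of 500 kb on each side was the fullest of the set, with 86 and 104 loops.

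CTCF marks many cohesin loop anchors, and a strict core of its motif, 12 letters of which 3 were left free, was searched in the anchors on both strands. It was found in 6.72% of the 30601 distinct anchors of the lists, in 2 of the 16 start anchors of the set with a loop (12.5%) and in 5 of the 79 opposite anchors (6.33%). The opposite anchors of shared loops held it in 0 of 14 cases, those of WT-only loops in 2 of 31 and those of STAG2-KD-only loops in 3 of 34. None of the start bins of DUSP6 held it. Matches to so strict a core describe letters, and CTCF binding was not examined, so a bin without a match can still be bound. The core stood at both anchors of 1 loop of the set, the WT-only loop of SPRY4 that reached 225 kb upstream, with the core on the plus strand in the left anchor and on the minus strand in the right, so that the motifs face each other. Both anchors held the core in 0.674% of all WT loops and 0.695% of all STAG2-KD loops. The matches in that loop are given with those at SPRY2, which stand in different loops. The SPRY2 start match lies in the bin of the representative start, which anchored only the 20 kb WT-only loop, and the other lies 660 kb downstream in the opposite anchor of a loop from the bin 80910001-80915000, which held no core. The matches are printed as 30 bases with the core in capitals, each read on the strand of the motif. They lie at chr5:141703041-141703052 (plus), chr5:141928563-141928574 (minus), chr13:80917160-80917171 (plus) and chr13:80253588-80253599 (plus), in the order of the lines.
SPRY4 start anchor: cttgctgcgCCAGAAGGCGGCctcctgccc
SPRY4 upstream anchor: tagaaggggCCAGGAGGGGGCagtgatggg
SPRY2 representative start bin: cccctctggCCACCAGGGGGCgcccgcccg
SPRY2 anchor 660 kb downstream: agaagatggCCACTAGGGGGCagctacgta

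A further 24 genes of ERK output were counted in the same way. This list was made of other DUSP phosphatases, Sprouty and ETS relatives and early response genes, and was written down by pathway role. Of the 24, 10 had more loops in the STAG2-KD list, 5 had fewer, 1 (EGR3, a zinc finger early response gene) had 3 in each, and 8 had 0 in both. Of the 16 with a loop, 62.5% had more and 31.2% fewer, against 34.4% and 43.5% of all looped genes, and 10 had a shared loop. This contrast rests on 16 genes, many of which differed by only 1 or 2 loops, and it was not tested. Their loop counts summed to 55 in WT and 59 in STAG2-KD. The largest surpluses in STAG2-KD were at the cyclin D1 gene CCND1, with 5 WT and 8 STAG2-KD loops, 4 of them shared, and at DUSP10, a phosphatase for the stress kinases p38 and JNK, with 11 and 14, 5 of them shared. DUSP14 followed with 1 and 3, level with other genes that differed by 2. The largest deficit was at DUSP16, a phosphatase for JNK, with 7 and 1, the latter shared. The ETS repressor gene ERF had 3 and 0, and DUSP7, which encodes a cytoplasmic ERK phosphatase like DUSP6, had 2 and 0. The genes with 0 loops in both lists were DUSP1, DUSP2, SPRED3, ETS2, EGR2, IER3, EPHA4 and PHLDA3. Within this list, as in the set of 10, phosphatase genes were found on both sides.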

How the data were processed

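HiChIP was described for 4 samples, 2 per group, and groups were taken from their titles. Per the study's methods, the authors digested chromatin with MboI, used HiC-Pro for alignment to hg19, hichip-peaks for the H3K27ac peaks and FitHiChIP for the loops. For their differential analysis the authors removed loops above a false discovery rate limit and loops supported in 1 replicate only. Whether the deposited lists had these filters, whether a list merges both samples of its group, and the tool versions are not given in the sources used here. The deposited lists have 3 columns, namely chromosome, left anchor start and right anchor end in base pairs on hg19, with no counts or scores, so depth is unknown. Starts are printed counted from 1.

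The gene annotation was GENCODE release 44, in its lift to GRCh37. The representative start is the Ensembl canonical one. Distances run between anchor midpoints. The anchors are 5 kb bins, and 1 loop lay off that grid. All 10 genes were named, with partner genes having a start in the opposite anchor of shared loops and of private loops (for genes with over 12 distinct loops, the 3 longest and 3 shortest private ones) and, of the other ERK genes, the 3 that differed most each way and those at 0. The genes, lists and rules were chosen with earlier results of these data known. No test was made. Scripts (Python 3.11.15, numpy 2.4.6, scipy 1.17.1, matplotlib 3.10.9) were tested on simulated lists and returned all planted counts for 200 of 200 genes. Alternatives covered the start definition, matching tolerance, distance limit, list length and each gene left out.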

Additional observations from a re-analysis of the deposited data

How the results depend on the processing

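Counts, differences and medians that stayed within 1.5 times the reported value, and shares that stayed within its interval, are not listed, and neither are alternatives that could not change a value, such as leaving out DUSP4. For single genes, 38 of 180 counts and differences moved past these margins and 2 reversed, and only some of these are given. Counting representative starts only gave 14 WT and 19 STAG2-KD loops, a difference of 5, with 5 shared, 9 WT-only and 14 STAG2-KD-only, a WT median of 150 kb and a protein-coding start at the opposite anchor of 0% of the WT loops. Under it, DUSP6 had 1 more loop in STAG2-KD, and SPRY2 had 1 WT and 0 STAG2-KD loops, a difference of -1 in place of -7. Counting only starts of protein-coding transcripts gave DUSP5 0 WT loops and 1 STAG2-KD loop, and ETV5 0 in each list. A start within 5 kb of an anchor gave 76 loops in each list, a difference of 0, with 23 shared, 53 WT-only and 53 STAG2-KD-only, and ETV4 then differed by -1. Leaving out SPRY2 gave 25 WT loops, 7 shared and 18 WT-only, a WT median of 130 kb and a difference of 10. The difference in the totals, 3 as reported, was 9 for loops of at most 500 kb, 0 in the first 50% of lines, 6 without DUSP6, 1 without PHLDA1, -4 without SPRED2 and -1 without ETV4. SPRY2 differed by -2 for loops of at most 500 kb, and SPRY4 by -2 in the first 50% of lines. A tolerance of 1 or 2 bins took none of the counts and shares of shared and private loops past these margins. No paired analysis was possible because only 1 list stands for each group. For the same reason no replicate could be left out, and no stricter limit could be set because the lists hold positions only.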
